A study of Mus musculus with 6 samples.

Results

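The enzymes that make fatty acids from sugar, and the proteins that switch their genes on, were compared in the livers of A/J-12SM and A/J mice. The genes were listed by name for their known roles. No threshold on a measured value picked them, but earlier results of these data were known when they were listed. The set holds the enzymes Acly, Acaca, Acacb, Fasn, Me1 and Pklr, the citrate carrier Slc25a1, and the regulators Mlxipl, Srebf1 and Thrsp. They are 10 of the 18193 genes named on the array, and 22 of the 45037 probe sets compared carry the name of exactly 1 of them. Each probe set joins several short probes that bind 1 transcript. None of the 22 is shared with another gene. Acly, Acaca, Acacb, Me1, Pklr and Thrsp have more than 1 probe set each.

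A/J-12SM is a consomic strain, an A/J mouse in which chromosome 12 comes from the SM/J strain. A/J mice, the recipient strain, served as the control. All mice were males given the high-fat diet for 7 weeks, and the sample labels do not give their age. RNA from 3 livers was combined for each one-colour Affymetrix array, with 3 arrays per strain. A replicate is thus a group of 3 mice, and the spread among individual mice was not measured. Any chromosome 12 gene, or several, may differ between the strains, so these arrays compare whole strains and not a single gene. None of the 10 genes lies on chromosome 12, and Acly, Acaca, Fasn and Srebf1 lie on chromosome 11 (GRCm38.p6).

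De novo lipogenesis turns surplus carbohydrate into fatty acids in the cytosol of the hepatocyte. Glycolysis supplies pyruvate, mitochondria turn it into citrate, and citrate leaves for the cytosol, where it is split to acetyl-CoA, carboxylated to malonyl-CoA and built into palmitate with NADPH. In liver the genes of this route are switched on mainly by SREBP-1c, which answers to insulin, and by ChREBP, which answers to glucose.

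Windows around annotated start sites were found for all 10 genes in the RefSeq table (GRCm38.p6). The 15 windows of 300 bases run from 250 bases before a start site to 50 after it. All windows of Acaca, Acacb, Fasn and Srebf1 lie inside the annotated spans of these genes, so sequence before those spans was not searched. The only Acaca window (chr11:84195188-84195487, plus strand) lies far inside a gene that begins at base 84129635. Each window was searched on both strands for short motifs that bind known lipogenic factors. The NF-Y box CCAAT was present in 10 of the 15 windows and in 9 of the 10 genes, while 41.1% of 27025 genes hold it. The exception was Acaca by its only window. The Sp1 box GGGCGG was present in 5 genes (38.2% of all genes). The palindromic E-box CACGTG was present in Slc25a1 and Mlxipl (8.09% of all genes). The sterol response core CACCCCAC was in none of the 15 windows (3.3% of all genes). Gene windows differ in number, so by windows the shares over the whole table were 37.4% for CCAAT, 35.7% for GGGCGG, 7.15% for CACGTG and 2.87% for CACCCCAC. Only exact letters were searched, so elements built of imperfect or spaced copies of a motif were not looked for, in Pklr or elsewhere. A match is a description of letters and not a binding site. The windows of Fasn (chr11:120824498-120824797, minus strand), Acly (chr11:100527951-100528250, minus strand) and Slc25a1 (chr16:17928170-17928469, minus strand) are shown as examples. These genes belong to 6 whose signals correlated across the arrays, picked after their values were seen. Fasn and Slc25a1 correlated least of all pairs of the 6 (Pearson r = 0.58). A link between the motifs and the signals was not tested. The first window of Mlxipl (chr5:135089640-135089939, plus strand) is shown because it is the regulator whose strains did not overlap on the normalized signals. Capitals mark the matches.
Fasn: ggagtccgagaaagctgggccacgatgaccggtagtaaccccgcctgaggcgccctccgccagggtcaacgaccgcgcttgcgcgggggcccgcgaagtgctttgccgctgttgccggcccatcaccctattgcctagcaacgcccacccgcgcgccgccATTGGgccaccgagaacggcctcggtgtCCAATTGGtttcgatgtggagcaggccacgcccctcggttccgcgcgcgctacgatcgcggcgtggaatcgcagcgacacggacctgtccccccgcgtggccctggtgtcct
Acly: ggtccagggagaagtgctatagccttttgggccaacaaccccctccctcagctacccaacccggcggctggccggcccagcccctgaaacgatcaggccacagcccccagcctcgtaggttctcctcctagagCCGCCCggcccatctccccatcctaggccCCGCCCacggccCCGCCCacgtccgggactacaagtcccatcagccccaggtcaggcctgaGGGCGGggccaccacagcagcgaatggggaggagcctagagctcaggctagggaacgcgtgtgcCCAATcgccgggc
Slc25a1: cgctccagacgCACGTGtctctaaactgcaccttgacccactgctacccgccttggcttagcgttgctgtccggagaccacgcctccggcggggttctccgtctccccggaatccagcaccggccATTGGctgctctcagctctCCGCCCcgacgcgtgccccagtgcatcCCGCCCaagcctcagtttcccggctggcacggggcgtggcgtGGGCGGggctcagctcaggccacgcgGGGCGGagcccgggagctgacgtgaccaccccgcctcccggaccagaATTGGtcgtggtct
Mlxipl: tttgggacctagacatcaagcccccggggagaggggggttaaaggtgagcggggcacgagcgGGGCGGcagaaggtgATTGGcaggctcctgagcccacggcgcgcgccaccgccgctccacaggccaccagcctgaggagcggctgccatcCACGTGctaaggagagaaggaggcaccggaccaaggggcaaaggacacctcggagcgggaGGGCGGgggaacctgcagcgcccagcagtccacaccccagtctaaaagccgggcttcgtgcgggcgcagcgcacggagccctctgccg
The Fasn window holds CCAAT once in the gene's own direction, 62 bases before the start site, and in the opposite direction 90 and 59 bases before it. The matches at 62 and 59 share bases. Acly holds GGGCGG on either strand 117, 88, 76 and 27 bases before its start site. The E-box lies 98 bases before the start site of the first window in Mlxipl and 239 bases before the start site in Slc25a1. The second Mlxipl window (chr5:135106641-135106940) held none of the motifs.

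The deposited values are MAS 5 signals, which summarise the probes of a set on a linear scale. Array levels were lower in A/J-12SM liver, with trimmed mean signals of 171 to 186, against 201 to 213 in A/J liver. Over all probe sets the median difference was -0.22 on the log2 scale, whereas 18 bacterial control probe sets differed by 0.02. The log2 signals were therefore brought to 1 common distribution by quantile normalization, and values below are normalized log2 signals unless the deposited signal is named. All differences are A/J-12SM minus A/J. Differences were tested with limma across all probe sets, which called 25 at a Benjamini-Hochberg adjusted p under 0.05 (11 higher, 14 lower), or 0.0555%, while 2808 had an unadjusted p under 0.05. All 12 hepatocyte markers examined, Alb and Ttr among them, were at or above the median brightness in these arrays, which are labelled as liver.

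None of the 22 lipogenic probe sets was called by limma, and the lowest adjusted p was 0.450. In simulated data the same test called 1.19% of changes of 0.5 on the log2 scale, so a lack of calls does not show equal levels. By the brightest probe set of each gene, all 10 were above the median brightness of all probe sets, and 19 of the 22 probe sets were. Of the 10, 7 had a lower mean in A/J-12SM liver, namely Acly, Acacb, Fasn, Me1, Slc25a1, Pklr and Thrsp, and Acaca, Srebf1 and Mlxipl had a higher one (on the deposited signals only Mlxipl had). Their median difference was -0.19, against -0.003 over the 11042 genes at or above the median brightness, of which 50.6% had a lower mean. At an unadjusted p under 0.05, Pklr was lower (4% of those 11042 genes) and Mlxipl was higher (3.98%). The strains did not overlap in Mlxipl, which was higher (6.8%), and no gene of the 10 was lower without overlap (7.18%). With 3 arrays against 3, an exact permutation test cannot go below p = 0.1. In bulk liver, fewer cells of a type and less RNA per cell cannot be told apart.

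**Figure D1:**
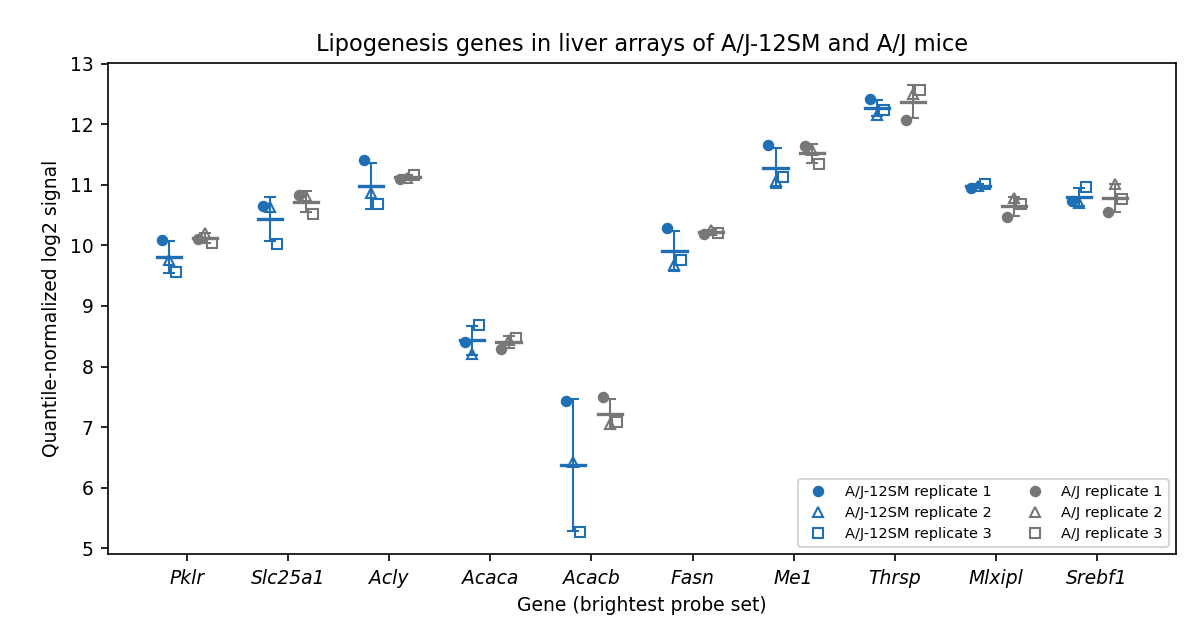
Normalized log2 signal of the brightest probe set of each of the 10 genes, with 1 point per array and a bar for the mean of 3 arrays, A/J-12SM left of A/J. The strains overlap in every gene but Mlxipl, whose A/J-12SM arrays sit between 10.94 and 11.02 and A/J arrays between 10.47 and 10.79.

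The steps that deliver carbon to the cytosol come first. Pklr encodes the liver form of pyruvate kinase, the last enzyme of glycolysis and a classical ChREBP target (3:89136122-89146815). Its brightest probe set (1421258_a_at) gave 10.08, 9.76 and 9.56 in A/J-12SM liver, against 10.10, 10.21 and 10.05 in A/J liver. A/J-12SM replicate 1 lay within the A/J range and the other two A/J-12SM arrays below it. The means were 9.80 ± 0.26 in A/J-12SM and 10.12 ± 0.08 in A/J liver (SD, n = 3 arrays each), a difference of -0.32 (SE 0.13, 95% interval -0.61 to -0.03, adjusted p = 0.788 from limma). Probe set 1421259_at had no overlap, with 9.48, 9.29 and 8.77 in A/J-12SM and 9.57, 9.73 and 9.63 in A/J liver (difference -0.46, SE 0.16, adjusted p = 0.732 from limma). Probe set 1438711_at differed less, by -0.13 (adjusted p = 0.895 from limma). All 3 probe sets of Pklr thus had a lower mean in A/J-12SM liver, and none passed the test.

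Slc25a1 encodes the mitochondrial citrate carrier, which exports the citrate used for lipogenesis (16:17925211-17928219). Its only probe set gave 10.65, 10.63 and 10.02 in A/J-12SM liver, against 10.83, 10.82 and 10.52 in A/J liver. The third array was the lowest of each strain, and A/J-12SM replicates 1 and 2 lay above A/J replicate 3. The difference was -0.28 (SE 0.17, 95% interval -0.66 to 0.09, adjusted p = 0.833 from limma). Without A/J-12SM replicate 3 it was -0.079.

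Acly, ATP citrate lyase, splits citrate into acetyl-CoA and oxaloacetate (11:100476352-100528000). Its brightest probe set (1451666_at) gave 11.41, 10.86 and 10.68 in A/J-12SM liver, against 11.09, 11.11 and 11.16 in A/J liver. A/J-12SM arrays thus lay on both sides of the narrow A/J range, with an SD of 0.38 in A/J-12SM and 0.04 in A/J liver (n = 3 each). The difference was -0.14 (SE 0.16, 95% interval -0.49 to 0.22, adjusted p = 0.915 from limma). Probe set 1425326_at showed the same order, with 9.47, 8.79 and 8.74 in A/J-12SM and 9.20, 9.24 and 9.36 in A/J liver. Of the other 4 probe sets of Acly, 1439459_x_at and 1439445_x_at each differed by -0.11. The remaining pair, 1446315_at and 1438389_x_at, were below the median brightness, where replicates scatter widely, and differed by 0.35 (SE 0.46) and 0.25 (SE 0.87).

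The next step is catalysed by acetyl-CoA carboxylase, whose product malonyl-CoA feeds fatty acid synthesis and also inhibits the entry of fatty acids into mitochondria. Acaca encodes the cytosolic form (11:84129635-84401651). Its brightest probe set (1434185_at) gave 8.41, 8.21 and 8.68 in A/J-12SM liver, against 8.29, 8.44 and 8.47 in A/J liver, and the strains overlapped throughout (difference 0.03, SE 0.14, 95% interval -0.27 to 0.34, adjusted p = 0.981 from limma, and -0.19 on the deposited signals). Its dimmer probe set (1427595_at) did not overlap, with 6.44, 6.15 and 6.18 in A/J-12SM and 6.68, 6.67 and 6.73 in A/J liver (difference -0.44, SE 0.18, adjusted p = 0.792 from limma). The probe sets of Acaca therefore did not give the same picture.

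Acacb encodes the form at the mitochondrial outer membrane, which is tied to the control of fat oxidation (5:114146321-114250761). Its brighter probe set (1427052_at) gave 7.44, 6.43 and 5.27 in A/J-12SM liver, against 7.49, 7.06 and 7.09 in A/J liver. The A/J-12SM arrays lay far apart, with deposited signals of 154, 85.9 and 34.3, against 203, 144 and 141 in A/J liver. The difference of -0.83 was the largest of the 10 genes by the brightest probe set, and so was its error (SE 0.44, 95% interval -1.82 to 0.15, adjusted p = 0.829 from limma). It was -0.28 without A/J-12SM replicate 3 and -1.35 without A/J-12SM replicate 1. The other probe set (1445754_at) went the opposite way, with 4.24, 4.81 and 4.87 in A/J-12SM and 3.26, 0.96 and 2.62 in A/J liver. These are deposited signals of 16.5 to 28.7 in A/J-12SM and 2.39 to 10.3 in A/J liver, below the median brightness of all probe sets. Its difference was 2.36 (SE 0.71, adjusted p = 0.622 from limma).

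Fasn, fatty acid synthase, builds palmitate from acetyl-CoA and malonyl-CoA (11:120805958-120825166). Its only probe set gave 10.29, 9.67 and 9.76 in A/J-12SM liver, against 10.20, 10.26 and 10.21 in A/J liver. A/J-12SM replicate 1 was the highest of all 6 arrays and the other two A/J-12SM arrays were the lowest. The means were 9.91 ± 0.34 in A/J-12SM and 10.22 ± 0.03 in A/J liver (SD, n = 3 each), a difference of -0.31 (SE 0.15, 95% interval -0.64 to 0.02, adjusted p = 0.807 from limma). The deposited signals of Fasn did not overlap, at 1108, 783 and 810 in A/J-12SM and 1288, 1269 and 1288 in A/J liver. On that scale Pklr and Slc25a1 were also lower without overlap, 3 of the 10 genes, and so were 29.3% of the 11042 brighter genes.

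Me1, cytosolic malic enzyme, returns pyruvate and makes NADPH for Fasn (9:86581363-86695914). Its brightest probe set (1430307_a_at) gave 11.66, 11.05 and 11.13 in A/J-12SM liver, against 11.65, 11.57 and 11.34 in A/J liver (difference -0.23, SE 0.15, adjusted p = 0.851 from limma). A/J-12SM replicate 1 was again level with the highest A/J array. The other probe set (1416632_at) had no overlap and the lowest p of all 22, with 8.60, 8.51 and 8.33 in A/J-12SM liver, against 9.18, 8.85 and 8.93 in A/J liver. Its difference was -0.50, a ratio of 0.705 (SE 0.12, 95% interval -0.78 to -0.23, unadjusted p = 0.00234, adjusted p = 0.450 from limma). Over all 22 probe sets, 4 were lower and 2 higher at an unadjusted p under 0.05, against 3.01% lower and 3.23% higher among all 45037. Without overlap of the strains 3 were lower and 2 higher, against 5.83% and 6.13% of all probe sets. These shares include dim probe sets, whereas 19 of the 22 were at or above the median brightness, so they are not a like background. The 4 lower by the unadjusted p came from Acaca, Me1 and Pklr only, so probe sets of 1 gene were counted more than once.

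**Figure D2:**
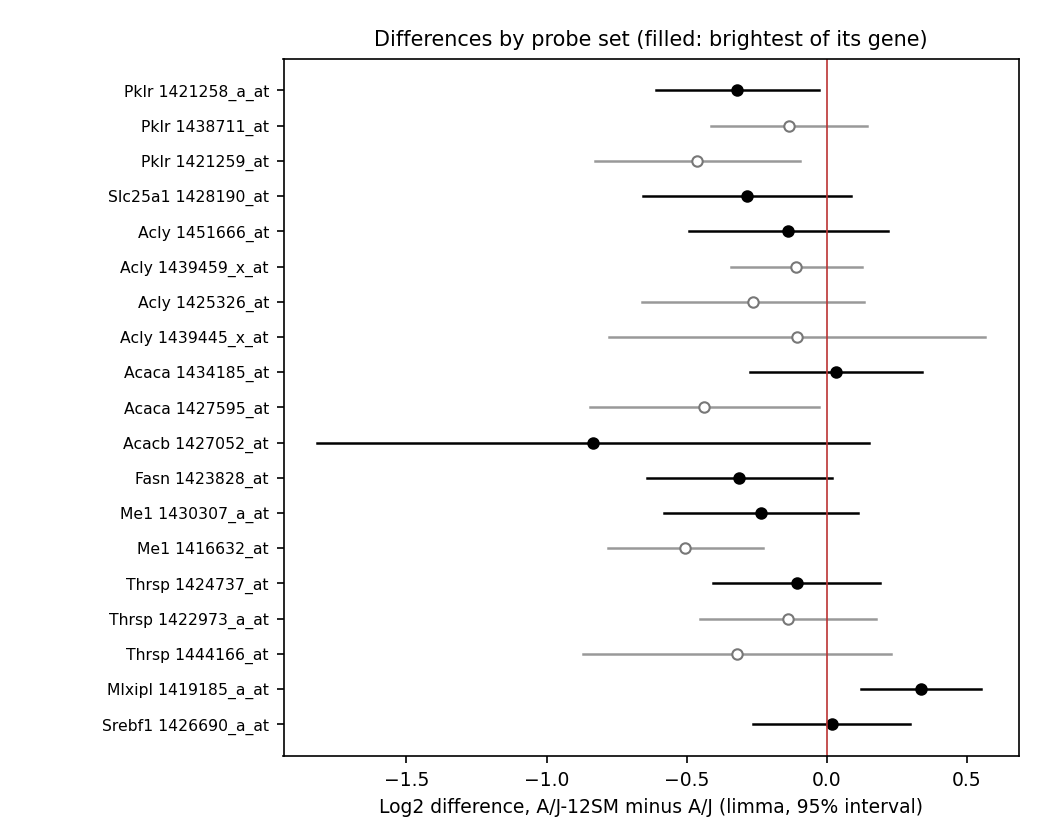
Difference between strains (A/J-12SM minus A/J, log2) with its 95% interval for the 19 lipogenic probe sets of at least median brightness. Of these 16 lie below 0 and 3 above it, and the difference runs from -0.83 for Acacb to 0.34 for Mlxipl.

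Among the regulators, only Mlxipl had strains that did not overlap on the normalized signals. It was 1 of the 10 genes, and 6.8% of the brighter genes were also higher without overlap. Mlxipl encodes ChREBP, the glucose-sensing transcription factor (5:135089890-135139768). Its only probe set gave 10.94, 10.98 and 11.02 in A/J-12SM liver, against 10.47, 10.79 and 10.68 in A/J liver. Every A/J-12SM array was above every A/J array. The means were 10.98 ± 0.04 in A/J-12SM and 10.65 ± 0.16 in A/J liver (SD, n = 3 each), a difference of 0.34 or a ratio of 1.26 (SE 0.10, 95% interval 0.12 to 0.55). The unadjusted p was 0.00595 and the adjusted p = 0.589 from limma, and the exact permutation test gave the smallest p it allows, 0.1. The strains overlapped in the deposited signals, 1788, 1944 and 1991 in A/J-12SM and 1572, 1817 and 1772 in A/J liver, where the difference was 0.15 on the log2 scale. Pklr, named above as a ChREBP target, had a lower mean in A/J-12SM liver on both scales. ChREBP activity was not measured, and a link between the Mlxipl and Pklr values was not tested.

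Srebf1 encodes SREBP-1, and the annotation does not assign its only probe set to SREBP-1a or SREBP-1c (11:60199084-60224186). It gave 10.72, 10.70 and 10.96 in A/J-12SM liver, against 10.55, 11.01 and 10.76 in A/J liver. All A/J-12SM arrays lay within the A/J range. The difference was 0.02 (SE 0.13, 95% interval -0.26 to 0.30, adjusted p = 0.988 from limma), and it was -0.17 on the deposited signals. The array measures mRNA only, so cleavage of the SREBP-1 precursor, which sets its activity, was not measured.

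Thrsp, known as Spot 14, is a small protein of lipogenic tissues that follows thyroid hormone and carbohydrate (7:97412933-97417550). Its brightest probe set (1424737_at) gave 12.41, 12.15 and 12.24 in A/J-12SM liver, against 12.06, 12.49 and 12.56 in A/J liver. A/J replicate 1 was the lowest of the 6 arrays and the other two A/J arrays the highest. The difference was -0.11 (SE 0.13, 95% interval -0.40 to 0.19, adjusted p = 0.925 from limma). Its other probe sets differed by -0.14 (1422973_a_at) and -0.32 (1444166_at), and neither passed the test.

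The A/J-12SM arrays did not share a level of these genes. Each gene was centred on its mean over the 6 arrays, and the 10 genes were averaged within each array. The average was 0.18, -0.17 and -0.29 in A/J-12SM liver, against 0.06, 0.16 and 0.06 in A/J liver. A/J-12SM replicate 1 was thus the highest of all arrays, and replicates 2 and 3 the lowest. Replicate 1 was the highest of its strain in 7 of the 10 genes, all but Acaca, Mlxipl and Srebf1, whereas it was so in 29.1% of the brighter genes. Replicate 2 was below the A/J mean in 9 of the 10 genes and replicate 3 in 7. The SD was larger in A/J-12SM than in A/J liver in 7 of the 10 genes and in 60.9% of the brighter genes.

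The 6 genes Acly, Acacb, Fasn, Me1, Slc25a1 and Pklr, followed each other closely across arrays. They were picked after their values were seen, as genes that all correlated with each other, so high correlations among them were fixed by the choice. Their 15 pairs had Pearson correlations of 0.58 to 0.92 over the 6 arrays, and of 0.38 to 0.93 after each strain was centred on its own mean. These describe 6 arrays that share the same 2 strains and the same normalization. Acaca, Mlxipl, Srebf1 and Thrsp were not among the 6 genes. Their correlations to Pklr were -0.37, -0.64, -0.18 and 0.43. After each strain was centred they were -0.41, -0.072, -0.19 and 0.33. Replicate 1 was the highest A/J-12SM array in 7 of the 10 genes, so lower differences were built into leaving it out. With A/J-12SM replicate 1 left out, the median difference of the 10 genes was -0.37. Then 5 of them were lower at an unadjusted p under 0.05 (4.76% of the brighter genes), against 1 with all arrays. None was called by limma (lowest adjusted p 0.277 over the 22 probe sets). With A/J-12SM replicate 3 left out instead, the median was -0.091, and it was -0.098 without A/J-12SM replicate 2. In both of these fits, none of the 10 genes was lower and 1 was higher at an unadjusted p under 0.05 from limma. The low mean of these genes in A/J-12SM liver therefore rested on replicates 2 and 3.

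**Figure D3:**
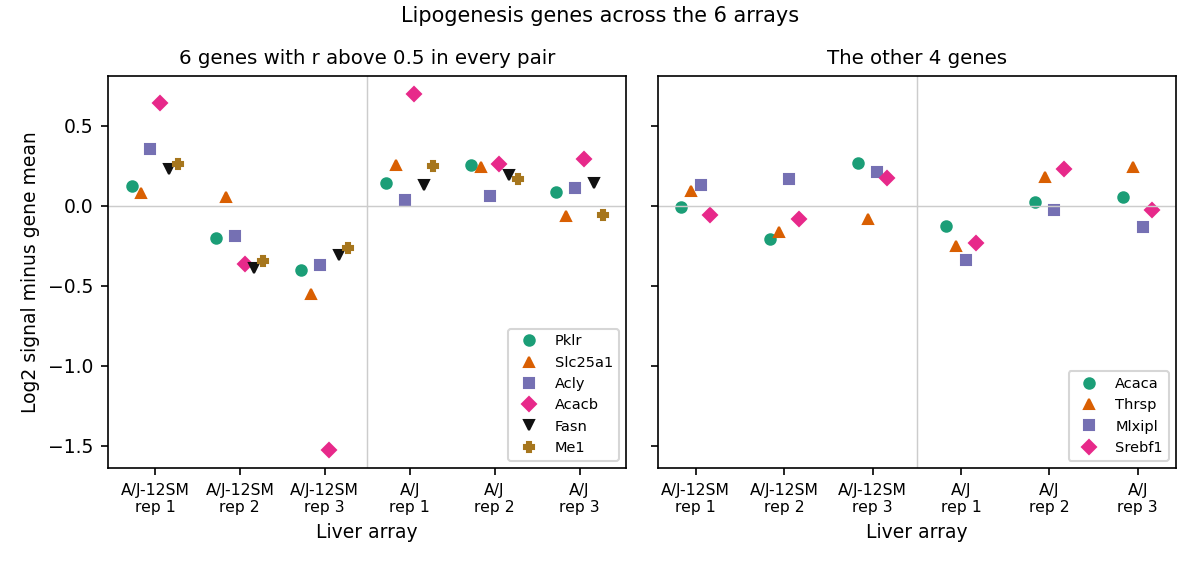
Normalized log2 signal of single genes on each of the 6 arrays, each gene centred on its own mean over the arrays, with A/J-12SM arrays left of A/J arrays. In the panel of Acly, Acacb, Fasn, Me1, Slc25a1 and Pklr the points of A/J-12SM replicate 1 sit above those of replicates 2 and 3.

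Kupffer cell markers and the actin ratio followed this array pattern only in part. A/J-12SM replicate 3 was the lowest array in both, but A/J-12SM replicate 1 was the highest in neither. The 12 Kupffer cell and macrophage markers, each centred in the same way, averaged 0.16, -0.21 and -0.42 in A/J-12SM liver, against -0.01, 0.29 and 0.20 in A/J liver. All 12 had a lower mean in A/J-12SM liver (median difference -0.29), and their summed linear signal was 6443 to 8102 in A/J-12SM and 7443 to 9275 in A/J liver. All 12 were at or above the median brightness, none was called by limma, and their part in the lipogenic values was not tested. The ratio of the 5′ to the 3′ probe sets of actin, a sign of RNA length, was 0.553, 0.561 and 0.423 in A/J-12SM liver, against 0.590, 0.580 and 0.571 in A/J liver. A/J-12SM replicate 3 was thus the lowest for this ratio as it was for the lipogenic average, and its part was likewise not tested. The same ratio for Gapdh was 1.55, 1.48 and 1.53 in A/J-12SM liver, against 1.49, 1.45 and 1.54 in A/J liver, and was not low in A/J-12SM replicate 3. The 12 hepatocyte markers did not follow the pattern, with averages of 0.086, -0.003 and 0.091 in A/J-12SM liver, against -0.08, -0.11 and 0.02 in A/J liver. Adipocytes express most of the 10 genes too. Of 7 measured adipocyte markers 4, among them Adipoq, were below the median brightness, and their summed signal was 819 to 1105 in A/J-12SM and 822 to 1115 in A/J liver.

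The genes whose profile over the 6 arrays was most like the mean of the 10 were looked for among 11032 other genes at or above the median brightness, of which 141 had a Pearson correlation of at least 0.9. The closest were Pcyox1 (r = 0.993, Spearman's rho 0.886), Marco (0.992, rho 1), Suco (0.989, rho 1), Ubxn4 (0.988, rho 0.943) and Cd300a (0.985, rho 0.886). Marco, a scavenger receptor of macrophages, gave 7.22, 5.74 and 5.25 in A/J-12SM liver, against 6.57, 6.86 and 6.75 in A/J liver. Pcyox1 encodes prenylcysteine oxidase and Cd300a an inhibitory receptor of myeloid cells. None of these 5 genes was called between strains by limma.

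The wider pathway was described by lists of genes around the 10, and no gene of any of these lists was called by limma. The counts below depend on the scaling where medians are small: with arrays centred on their median, the lists of sugar use and NADPH supply had medians of 0.028 and 0.011 (0.016 and 0.077 without A/J-12SM replicate 2), and on the deposited signals those of SREBP processing and acetyl-CoA carboxylase control had -0.16 and -0.10. Of the steps that carry sugar to citrate, 11 of 17 listed genes were measured, 8 with a lower and 3 with a higher mean in A/J-12SM liver (median -0.07). Pyruvate carboxylase (Pcx), which makes oxaloacetate, was at 11.48 ± 0.05 in A/J-12SM and 11.71 ± 0.04 in A/J liver (SD, n = 3 each, difference -0.23, SE 0.08, adjusted p = 0.688 from limma). Mpc1, a subunit of the mitochondrial pyruvate carrier, differed by -0.26 (adjusted p = 0.798 from limma). Among 11 measured sources of NADPH other than Me1, 6 were lower and 5 higher (median -0.06). Mthfd1, a folate enzyme on chromosome 12, was at 11.83 ± 0.10 in A/J-12SM and 11.30 ± 0.08 in A/J liver (difference 0.53, SE 0.09, adjusted p = 0.136 from limma). Pgd, of the pentose phosphate pathway, differed by -0.25 (adjusted p = 0.762 from limma).

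Of the genes that act after Fasn, in desaturation, elongation and esterification, all 17 listed were measured, 13 with a lower and 4 with a higher mean in A/J-12SM liver (median -0.23). The median was -0.11 with arrays centred on their median, with 12 lower, and -0.098 without A/J replicate 2, with 11 lower. At an unadjusted p under 0.05, 6 were lower and 2 higher, against 4% and 3.98% of the brighter genes. Without overlap of the strains 7 were lower and 2 higher, against 7.18% and 6.8%. Elovl2, an elongase of polyunsaturated fatty acids, was at 13.01 ± 0.11 in A/J-12SM and 13.31 ± 0.07 in A/J liver (difference -0.30, SE 0.09, adjusted p = 0.622 from limma). Lpin1, a phosphatidate phosphatase of triglyceride synthesis, went the other way, at 8.68 ± 0.22 in A/J-12SM and 8.20 ± 0.13 in A/J liver (difference 0.48, SE 0.14, adjusted p = 0.586 from limma). Lpin1, like Mthfd1, lies on chromosome 12, where the A/J-12SM mouse carries SM/J sequence. The effect of sequence differences on the binding of the probes of Lpin1 and Mthfd1 was not tested.

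The lists of control were more evenly divided on the normalized signals, but not on the deposited ones, where 15 of 17 transcription factors and coactivators (median -0.28), 9 of 10 genes of SREBP processing and 11 of 13 of carboxylase control had a lower mean. Of 17 measured transcription factors and coactivators, 11 were lower and 6 higher (median -0.063, and 0.041 without A/J-12SM replicate 3). Pparg, which drives lipid storage genes and is weak in normal liver, was at 5.09 ± 0.22 in A/J-12SM and 6.01 ± 0.30 in A/J liver (difference -0.92, SE 0.29, adjusted p = 0.653 from limma). Its A/J-12SM arrays, at 5.33, 4.90 and 5.03, lay at or below the median brightness of 5.33, where replicates scatter widely. Ppargc1b, a coactivator of SREBP-1, differed by 0.44 (adjusted p = 0.792 from limma). Of 10 genes that process or retain SREBP, 4 were lower and 6 higher (median 0.075), with Insig2, which holds SREBP in the endoplasmic reticulum, at -0.28 and Erlin1 at 0.25. Of 13 genes that control acetyl-CoA carboxylase or answer to malonyl-CoA, 5 were lower and 8 higher (median 0.12). Prkag2, a regulatory subunit of AMP-activated kinase, was at 8.12 ± 0.31 in A/J-12SM and 7.36 ± 0.18 in A/J liver (difference 0.75, SE 0.18, adjusted p = 0.417 from limma). Cpt1a, the mitochondrial transferase that malonyl-CoA inhibits, differed by -0.25 (adjusted p = 0.684 from limma). Of 6 ChREBP targets outside lipogenesis 5 were lower and 1 higher (median -0.17), with Gpd1 at -0.21 and G6pc at -0.33.

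Cholesterol synthesis is governed by SREBP-2. All 18 measured of 22 listed genes had a lower mean in A/J-12SM liver (median -0.43; 17 of 18 with arrays centred on their median), and 3 were lower at an unadjusted p under 0.05 (4% of the brighter genes). The median was -0.11 without A/J-12SM replicate 3, with 15 of 18 lower, and -0.63 without A/J-12SM replicate 1. Hmgcs1, cytosolic HMG-CoA synthase, gave 12.39, 11.88 and 11.22 in A/J-12SM liver, against 12.71, 12.64 and 12.56 in A/J liver (difference -0.81, SE 0.23, adjusted p = 0.589 from limma). Dhcr7, an enzyme of the final steps to cholesterol, differed by -0.86 (SE 0.27, adjusted p = 0.654 from limma). The array pattern was present here only in part, with list averages of 0.24, -0.06 and -0.85 in A/J-12SM liver, against 0.35, 0.23 and 0.09 in A/J liver. A/J-12SM replicate 3 was by far the lowest, and A/J-12SM replicate 1 lay below A/J replicate 1.

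**Figure D4:**
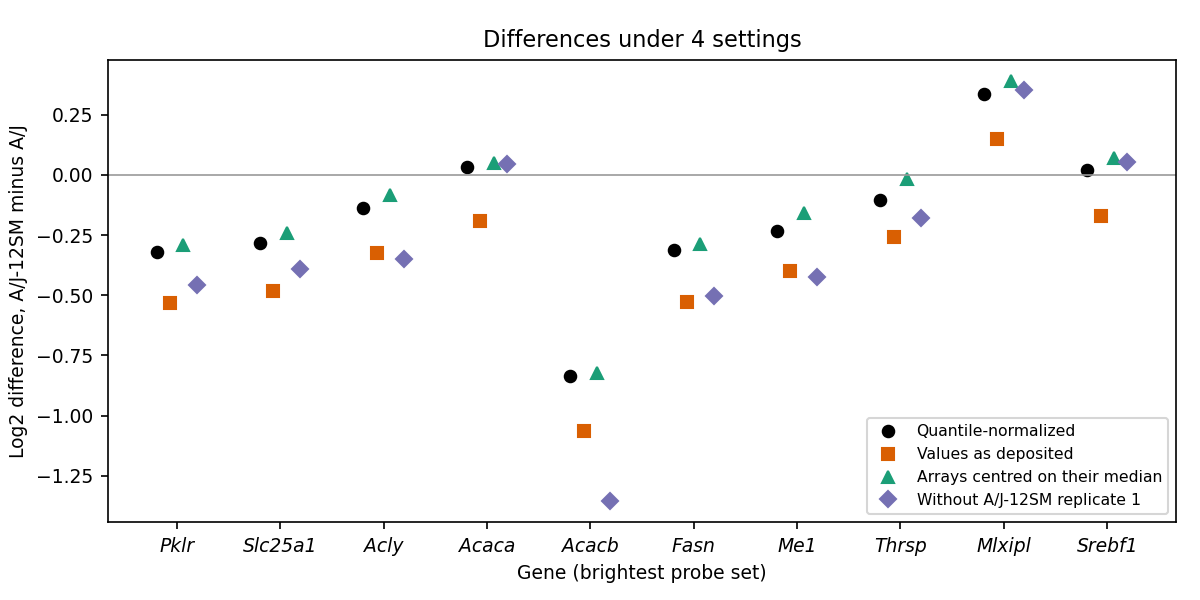
Difference between strains (A/J-12SM minus A/J, log2) of each of the 10 genes by its brightest probe set, under 4 settings: quantile-normalized, as deposited, with arrays centred on their median, and without A/J-12SM replicate 1. Pklr, Slc25a1, Acly, Acacb, Fasn, Me1 and Thrsp lie below 0, and Mlxipl lies above 0 in each of these settings, at 0.15 as deposited.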

How the data were processed

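Liver RNA of male mice was measured on 6 arrays, 3 per strain, and strain and replicate were taken from the sample labels. The authors deposited intensity values, linear MAS 5 signals with 1 value per probe set and array; the scaling was not given in the sources used here. After 64 control probe sets were left out, log2 signals were quantile normalized, which removes any true overall difference between strains, and compared with limma 3.58.1 (lmFit, eBayes with a trend on brightness) in R 4.3.3, without covariates. Benjamini-Hochberg adjustment ran over all 45037 probe sets. The fit was tested on simulated data.

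Gene names came from the platform annotation, updated through a GRCm38.p6 annotation (34741 of the 34945 probe sets with 1 gene matched). Each gene was read from its brightest probe set (highest mean log2 signal). The members and gene lists were chosen with earlier results of these data known. Named were all 10 members, in each pathway list the 2 genes with the lowest unadjusted p at or above the median brightness, and the 5 genes most like the members' mean. Cell type markers and the pathway lists were counted without a set test. The median SD between replicate log2 signals was 0.21 at or above the median brightness and 0.86 under it, and the number of arrays limits the precision. Whether the replicates shared a litter or day was not stated, so p-values measure only the spread between these arrays. Alternatives changed the normalization, an offset, a filter on dim probe sets, the prior variance, a replicate block, the test, the probe set rule and each array in turn. Plots used matplotlib 3.10.9 (Python 3.11.15).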

Additional observations from a re-analysis of the deposited data

How the results depend on the processing

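No lipogenic probe set was called under any alternative run. The count over all probe sets, 25, became 47 on the deposited signals and 1 with 1 prior variance or with the methods' t-test after Benjamini-Hochberg adjustment, and ranged from 6 to 23 with each array left out. With the replicate block it was 28. Then 4 of the 10 genes were lower and 1 higher at an unadjusted p under 0.05 from limma, against 1 and 1 without the block. Deviations of arrays with the same replicate number correlated at -0.06, 0.09 and 0.16, and with different numbers from -0.23 to 0.15. With 3 arrays per strain this cannot decide whether the numbers pair the samples. The median difference of the 10 genes, -0.19, was -0.36 on the deposited signals, where the median of the brighter genes was -0.22, and ranged from -0.37 to -0.091 with each array left out. The direction turned for Acaca, at -0.19 on the deposited signals, -0.20 as a mean over its probe sets and from -0.091 to 0.15 with arrays left out. It turned for Srebf1, at -0.17 on the deposited signals and from -0.093 to 0.14 with arrays left out, and for Acacb, at 0.76 as a mean over its probe sets. With arrays left out, Acly ranged from -0.35 to 0.013, its probe sets 1439445_x_at from -0.19 to 0.060, 1446315_at from -0.072 to 0.65 and 1438389_x_at from -0.62 to 0.78, and Pklr probe set 1438711_at from -0.22 to 0.0050. The cause of these turns was not tested. The other probe sets of the 10 genes kept their direction in every alternative run. Below the median brightness, replicate scatter limits what can be seen.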
